A study of Homo sapiens with 6 samples.

Results

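SOX9, KRT19 and CD44, markers of liver progenitor and stem-like tumour cells, were measured in Huh7 cells with and without GABA (gamma-aminobutyric acid). They were set beside FOXA1 and HNF4G, grouped here as hepatocyte transcription factors. The 5 genes are named one by one among the 5187 genes listed in the files and were found there by their Ensembl identifiers. They were chosen by their roles in the liver with their fold changes for GABA against control already known, so these levels and fold changes are given as a description, without a test. The libraries were sequenced from total RNA of Huh7, an established human hepatocellular carcinoma line grown in medium with 10% fetal bovine serum. Of the 6 libraries, 3 are labelled control and 3 GABA, the latter from cells given GABA for 24 h at a dose that the labels do not state. The labels number them as biological replicates without saying whether these are separate cultures, so p-values measure only the spread between these libraries.

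SOX9 is an HMG-box transcription factor of bile duct cells and of the progenitors that can give rise to both bile duct cells and hepatocytes. KRT19 encodes keratin 19, an intermediate filament protein of the bile duct epithelium, and CD44 encodes a cell-surface receptor for hyaluronan. FOXA1 is a forkhead pioneer factor that opens chromatin at liver enhancers, and HNF4G is a nuclear receptor closely related to HNF4A, the central regulator of hepatocyte genes. Mature hepatocytes are known for high levels of HNF4A and for little SOX9, KRT19 or CD44. How much HNF4G mature hepatocytes hold was not examined, so its level here is not read as a measure of hepatocyte identity.

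The 3 progenitor markers were higher and the 2 hepatocyte factors were lower in the GABA libraries. SOX9 differed most among the progenitor markers, at 1.92-fold, against 1.28-fold for KRT19 and 1.26-fold for CD44. FOXA1 stood at 0.397 and HNF4G at 0.626 of the control level, both from few reads. The groups did not overlap in any of the 5 genes. That held for 92.5% of the 4981 genes tested, because the files list few genes without a difference: the smallest absolute log2 fold change of a tested gene was 0.12. The edgeR quasi-likelihood test called 98.7% of the tested genes at an adjusted p below 0.05, with 47.6% higher and 51.2% lower, so nothing is read from such a count for the 5 genes. Of the 4981 genes 4923 had an unadjusted p below 0.05, so the adjustment changes little. The adjusted p-values given below for other genes therefore do not measure the share of false calls. In bulk RNA, fewer cells of a type and less RNA per cell cannot be told apart.

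**Figure D1:**
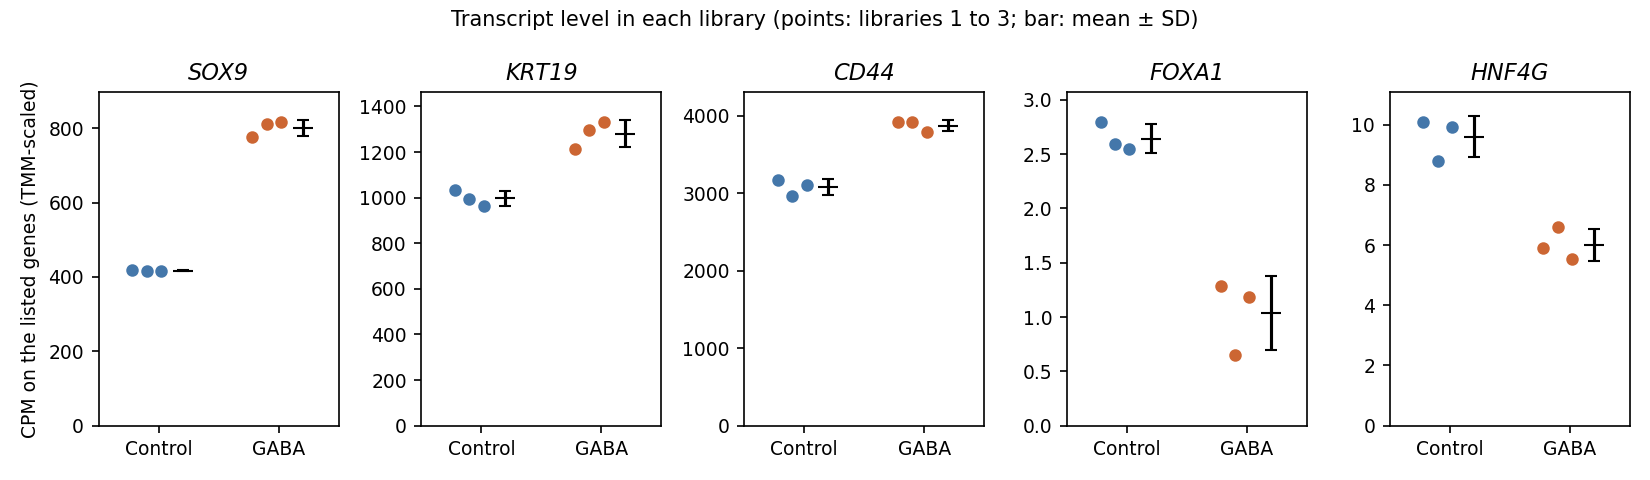
Transcript level of each of the 5 genes in the 6 libraries, in CPM (linear axes from 0, 1 scale per gene). Points are libraries and bars are the mean ± SD of 3. SOX9 lies between 415 and 420.0 CPM in control and between 776 and 816 CPM in GABA libraries, and FOXA1 stays below 3 CPM throughout.

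Counts on the listed genes summed to between 7702666 and 8392945 per library, which are sums over a part of the transcriptome and not library depths. Mitochondrially encoded genes held 9.11% of these counts in control replicate 3, against 6.66% to 7.74% in the other libraries. Without control replicate 3, the log2 fold changes were 0.94 for SOX9, 0.34 for KRT19, 0.33 for CD44, -1.36 for FOXA1 and -0.66 for HNF4G, close to those with it. Hepatocyte identity of the line could not be checked, since 2 of 35 genes for hepatocyte products are listed and ALB is not among the listed genes. Of 8 endothelial and 10 immune markers, 0 are listed. Of 10 markers of stellate cells and fibroblasts 3 are listed, with PDGFRB lower (40.3 to 20.2 CPM) and COL3A1 (20.0 to 31.6 CPM) and THY1 higher. Their part in the values of the 5 genes was not tested.

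SOX9 (ENSG00000125398) lies on chromosome 17 at 72121020-72126420, plus strand, in hg38 coordinates, with 3 exons. It was counted at 3460, 3205 and 3281 reads in control replicates 1, 2 and 3, and at 6044, 6286 and 6915 reads in GABA replicates 1, 2 and 3. In CPM, counts per 1000000 counts on the listed genes after scaling, the control libraries held 420.002, 415 and 417, and the GABA libraries 776, 812 and 816. The control libraries were nearly equal, and even the lowest GABA library was 1.85 times the highest control library. Group means were 417 ± 2.49 and 802 ± 21.9 CPM (SD, n = 3), a log2 fold change of 0.94 ± 0.06 (SE). The control libraries varied by 0.597% (coefficient of variation), less than the 1.74% that counting alone gives at that depth, while the GABA libraries varied by 2.73% against 1.25%. The small control SD is therefore no measure of how repeatable the level is.

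KRT19 (ENSG00000171345) lies on chromosome 17 at 41523617-41528308, minus strand. Its counts were 8500, 7682 and 7583 in the control libraries and 9455, 10031 and 11272 in the GABA libraries. These are 1032, 995 and 964 CPM against 1215, 1296.00 and 1330.27 CPM. The lowest GABA library exceeded the highest control library by a factor of 1.18. The means were 997 ± 33.7 and 1280.27 ± 59.4 CPM (SD, n = 3), with a log2 fold change of 0.36 ± 0.06 (SE). Both groups varied by more than counting error, at 3.38% against 1.12% in control and 4.64% against 0.988% in GABA libraries. KRT19 has processed pseudogene copies, among them KRT19P1. Of the 36-base words in its GENCODE transcripts 3.58% also occur in transcripts of other genes, and 3.05% occur in KRT19P1. With 50-base words the share was 0.977%. The read length is not given in the sources used here.

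CD44 (ENSG00000026508) lies on chromosome 11 at 35138870-35232402, plus strand, and has 39 annotated transcripts, which counts per gene do not separate. It had the most reads of the 5 genes, 26109, 22888 and 24424 in control and 30465, 30283 and 32092 in GABA libraries. The CPM values were 3169, 2964 and 3106 in control and 3913, 3913 and 3787 in GABA libraries, with the lowest GABA library 1.20 times the highest control library. The means of 3079.83 ± 105 and 3871 ± 72.5 CPM (SD, n = 3) gave a log2 fold change of 0.33 ± 0.06 (SE). In the antisense gene CD44-AS1, inside the CD44 locus, 14.3% of exon bases overlap CD44 exons, and whether counting used the strand is not given in the sources used here. CD44-AS1 was at 4.98, 3.76 and 8.39 CPM in control and 15.2, 12.7 and 11.7 CPM in GABA libraries, with a log2 fold change of 1.20 ± 0.25 (SE; edgeR adjusted p = 0.0016). The intronic transcript AL133330.1, on the strand of CD44, was also higher, with 4.80 ± 0.95 and 8.14 ± 1.41 CPM (SD, n = 3; edgeR adjusted p = 0.0086). Both had far fewer reads than CD44.

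FOXA1 (ENSG00000129514) lies on chromosome 14 at 37589984-37596059, minus strand. It was counted at 23, 20 and 20 reads in control and at 10, 5 and 10 reads in GABA libraries. Exact 95% Poisson intervals for these counts, which cover counting error only, ran from 14.6 to 34.5 reads in control replicate 1 and from 4.80 to 18.4 reads in GABA replicate 1, which overlap. The intervals of GABA replicates 1 and 3, with 10 reads each, overlapped that of every control library. GABA replicate 2 was the lowest, and its interval of 1.62 to 11.7 reads overlapped that of no control library, the lowest of which began at 12.2. FOXA1 was chosen with its fall known, so these intervals describe counting error and are no test of the difference. On the CPM scale the control libraries held 2.79, 2.59 and 2.54 and the GABA libraries 1.28, 0.646 and 1.18. The means were 2.64 ± 0.13 and 1.04 ± 0.34 CPM (SD, n = 3), a log2 fold change of -1.33 ± 0.34 (SE). Without GABA replicate 2 it was -1.09. The control libraries varied by 5.0%, less than the 21.8% that counting alone gives, and the GABA libraries by 33.0% against 34.6%. The control SD of FOXA1 thus does not show how repeatable its level is. FOXA1 passed the filter on low counts through its control libraries alone.

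HNF4G (ENSG00000164749) lies on chromosome 8, plus strand. Its counts were 83, 68 and 78 in control and 46, 51 and 47 in GABA libraries. The levels were 10.1, 8.81 and 9.92 CPM in control and 5.91, 6.59 and 5.55 CPM in GABA libraries, with the lowest control library 1.34 times the highest GABA library. The means were 9.60 ± 0.69 and 6.01 ± 0.53 CPM (SD, n = 3), a log2 fold change of -0.68 ± 0.18 (SE). In both groups the spread was below counting error, at 7.22% against 11.4% in control and 8.80% against 14.4% in GABA libraries.

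Per kilobase of merged exons, the order of levels was KRT19, CD44, SOX9, HNF4G and FOXA1 in each of the 6 libraries. In CPM per kilobase, control means were 427 ± 14.4 for KRT19, 308 ± 10.5 for CD44, 106 ± 0.63 for SOX9, 2.00 ± 0.14 for HNF4G and 0.663 ± 0.033 for FOXA1 (SD, n = 3). GABA means were 548 ± 25.4, 387 ± 7.25, 204 ± 5.56, 1.25 ± 0.11 and 0.260 ± 0.086 in the same order. No neighbours in that order came within their SD of each other. With the longest transcript as the length the order was the same in each library, and the control levels of KRT19 and CD44 were 717 and 537. The lowest value of SOX9, KRT19 or CD44 in any library was 105, and the highest of FOXA1 or HNF4G was 2.10. This gap did not extend to other genes of the lists used here. KIT, on the progenitor list, had means of 5.22 and 2.49 CPM per kilobase in control and GABA libraries. TBX3, grouped here with the hepatocyte factors although known from fetal liver cells, had 12.9 and 24.1.

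The fold changes were then set beside those of tested genes within 1.5-fold of the same level, because the listed genes reach larger fold changes at low counts. SOX9 had an absolute log2 fold change above that of 99.3% of 282 genes of like level, whose median was 0.27. KRT19 exceeded 75.3% of 150 such genes and CD44 68% of 25. FOXA1 exceeded 41.9% of 172 genes of like level, whose median absolute log2 fold change was 1.37 and whose smallest was 0.93. HNF4G exceeded 26% of 331 genes, with a median of 0.79 and a smallest value of 0.43. The changes in both hepatocyte factors were thus below the median for listed genes of their level. These shares describe the listed genes, not the transcriptome.

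**Figure D2:**
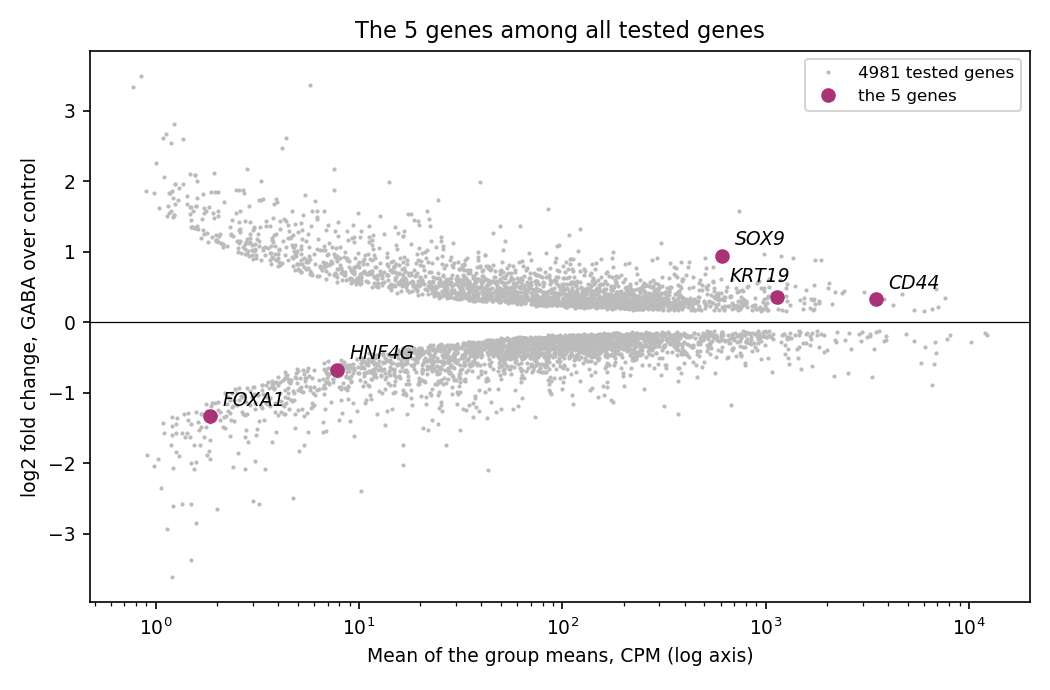
log2 fold change of GABA over control against the mean level (CPM, log axis) for the 4981 tested genes in grey, with the 5 genes marked. The empty band around 0 widens towards low levels. FOXA1 and HNF4G lie outside it but below the median absolute fold change of genes at their level, while SOX9 lies well outside the bulk of genes at its level.

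Ratios of counts within a library need no scaling between libraries. Reads of SOX9 outnumbered those of FOXA1 by 150.4, 160.2 and 164 to 1 in control replicates 1, 2 and 3, and by 604, 1257 and 692 to 1 in GABA replicates 1, 2 and 3. On the log2 scale the ratio was 7.30 ± 0.07 in control and 9.66 ± 0.56 in GABA libraries (SD, n = 3), a difference of 2.35. The wide GABA spread came with the 5 FOXA1 reads of GABA replicate 2, without which the difference was 2.03. In the control libraries FOXA1 varied by 5.0%, where counting alone gives 21.8%. The small control SD of this ratio is therefore no measure of its precision. SOX9 over HNF4G was at 5.45 ± 0.10 and 7.06 ± 0.13, an SD below that of SOX9 over FOXA1 in the GABA libraries only. HNF4G varied by less than counting error in both groups, so these SDs do not measure steadiness. KRT19 and CD44 kept nearly the same ratio to each other, 0.324 in control and 0.331 in GABA libraries (geometric means), with overlapping groups. SOX9 differed from both, with its ratio to KRT19 going from 0.419 to 0.626 and its ratio to CD44 from 0.136 to 0.207, without overlap. Such shifts restate fold changes that were known when the genes were chosen. How many other gene pairs lack overlap was not counted, while 92.5% of single tested genes do not overlap.

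**Figure D3:**
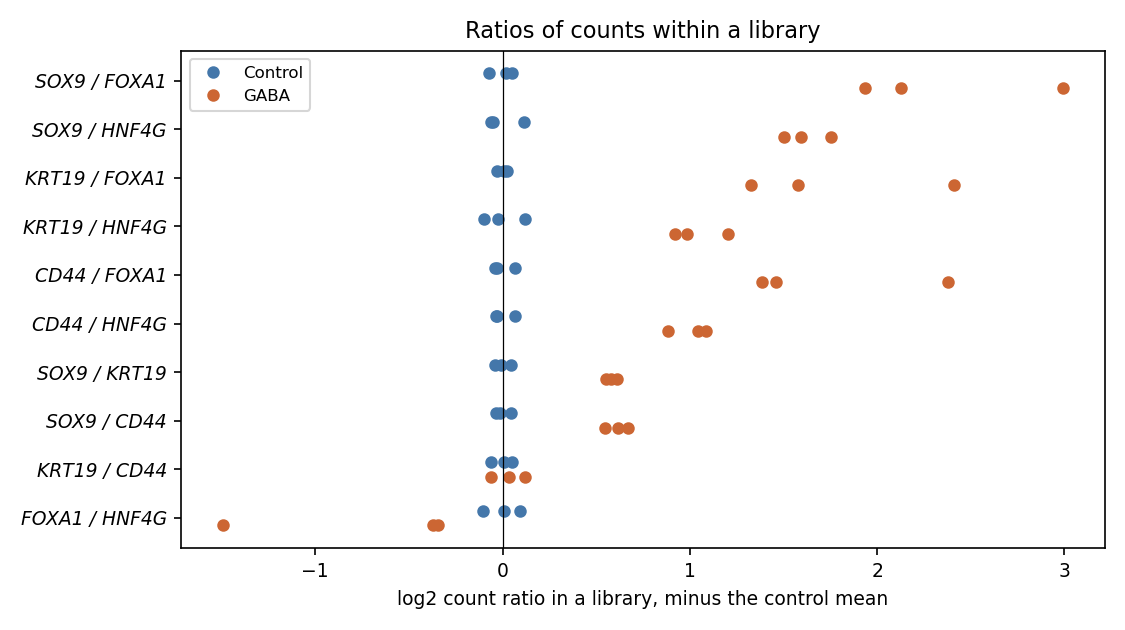
log2 ratio of the counts of 2 genes within each library, set to 0 at the control mean of that ratio. Blue points are control and orange points GABA libraries. The KRT19 to CD44 ratio overlaps between the groups, the ratios of SOX9 to KRT19 and CD44 are shifted by 0.58 and 0.61, and the ratios to FOXA1 spread most in the GABA libraries.

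The other genes of the progenitor and biliary list did not move one way. Of 28 such genes 9 are listed, and apart from the 3 described above 3 rose, 2 fell and 1 was not called by edgeR (median log2 fold change 0.08, against -0.18 over all tested genes). Of all tested genes 47.6% rose and 51.2% fell, so these counts do not set the list apart. ITGA6, the integrin alpha 6 chain of laminin receptors, rose from 899 ± 43.1 to 1167 ± 36.1 CPM (SD, n = 3; log2 fold change 0.38 ± 0.06, SE; edgeR adjusted p = 3.3e-04). THY1, a surface glycoprotein that also marks fibroblasts, rose by 0.33 ± 0.08 on the log2 scale (71.0 to 89.3 CPM; adjusted p = 0.0039). ICAM1, an adhesion receptor for leukocytes, rose by 0.32 ± 0.12 (adjusted p = 0.026), but its groups overlapped and it was not called without control replicate 1, GABA replicate 1 or GABA replicate 3. KIT, a receptor tyrosine kinase, went the other way, from 35.8, 26.0 and 25.3 CPM in control to 13.5, 14.2 and 13.9 CPM in GABA libraries (log2 fold change -1.07 ± 0.16; adjusted p = 1.8e-04). CD47, a surface signal that inhibits phagocytosis, had -0.28 ± 0.08 (adjusted p = 0.0066), and ALCAM, an adhesion molecule, had -0.15 ± 0.07 (adjusted p = 0.058). KRT7, EPCAM and PROM1, common partners of KRT19 as progenitor markers, are not among the listed genes.

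Among hepatocyte transcription factors 5 of 25 are listed. Besides FOXA1 and HNF4G these are GATA6, ATF5 and TBX3. GATA6, a zinc finger factor of endoderm, was at 22, 14 and 22 reads in control and 7, 8 and 5 reads in GABA libraries (log2 fold change -1.53 ± 0.37, SE). Like FOXA1 it passed the filter through its control libraries alone and so had to differ, and no test is given. ATF5, a leucine zipper factor abundant in liver, fell from 30.8 ± 3.44 to 19.7 ± 1.71 CPM (SD, n = 3; -0.65 ± 0.13; edgeR adjusted p = 0.0012), and 23.7% of its exon bases overlap other genes. Such overlap is not particular to ATF5. It was 23.64% for ICAM1, 23.35% for BMI1, 21.6% for RFNG, 17.87% for IGF2BP3 and 24.94% for KAZN, and lower in some other named genes. TBX3, a T-box factor of hepatoblasts, the bipotent cells of the fetal liver, rose from 76.6, 79.6 and 73.6 CPM to 146, 149 and 135 CPM (0.90 ± 0.08; adjusted p = 5.4e-06). HNF4A and CEBPA are not among the listed genes. Of hepatocyte products, C3, a complement component, fell from 22.3 to 15.7 CPM (adjusted p = 0.0072). SLC2A2, the glucose transporter GLUT2, was at 4, 3 and 1 reads in control and 16, 10 and 14 reads in GABA libraries, and it passed the filter through its GABA libraries alone, so no test is given. Of 12 oncofetal genes 2 are listed, and both fell, as did 51.2% of all tested genes. IGF2BP3, an mRNA-binding protein, had -0.55 ± 0.08 (adjusted p = 1.4e-04). SALL4, a zinc finger factor of stem cells, had -1.39 ± 0.20 (adjusted p = 1.7e-04). BMI1, a Polycomb subunit and the 1 stem cell factor listed of 8, had -0.18 ± 0.08 (adjusted p = 0.054).

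The listed genes tied to CD44 were higher. This list was chosen with earlier results of these data known, so its count is a description and does not set it apart. Of 20 ligands, partners and splicing factors of CD44, 5 are listed, and all 5 rose, against 47.6% of all tested genes (median log2 fold change 0.57; 4 without GABA replicate 2, where HYAL2 was not called). HMMR, the other main hyaluronan receptor and also a spindle protein, rose from 92.2 ± 20.4 to 137 ± 9.72 CPM (SD, n = 3; edgeR adjusted p = 0.0021). HAS3, a hyaluronan synthase, rose by 0.46 ± 0.12 on the log2 scale (adjusted p = 0.0046), and CEMIP, which takes part in hyaluronan breakdown, by 0.96 ± 0.25 (adjusted p = 0.0044). HYAL2, a hyaluronidase and the remaining gene, rose by 0.46 ± 0.15 (adjusted p = 0.013). ESRP2, an epithelial splicing regulator known to act on CD44 exons, was at 1.58, 3.37 and 1.65 CPM in control and 6.04, 5.81 and 6.02 CPM in GABA libraries (adjusted p = 0.0013).

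YAP, Notch and Wnt signalling are known to act on SOX9 in liver, and each of the 3 lists held genes of both directions, as did the tested genes at large, of which 47.6% rose and 51.2% fell. These counts are descriptions and set no list apart from the other tested genes. Of 10 listed YAP and TEAD genes 4 rose and 6 fell. LATS2, a kinase that restrains YAP and is also a YAP target, rose by 0.83 ± 0.10 on the log2 scale (153 to 273 CPM; edgeR adjusted p = 4.4e-05), and the targets ANKRD1 and CRIM1 rose by 0.44 ± 0.06 and 0.30 ± 0.06. AJUBA, a LIM protein that binds LATS kinases, fell from 1035 to 788 CPM (adjusted p = 4.8e-04). Outside the naming rule and chosen after their values were seen, the DNA-binding partner TEAD3 fell by 0.48 ± 0.12 on the log2 scale (adjusted p = 0.0036) and the YAP target CCN2 rose by 0.17 ± 0.06 (adjusted p = 0.016). TEAD1, TEAD4 and the coactivator WWTR1, chosen likewise, lay at -0.17 to -0.22 and were not called with DESeq2, whereas TEAD3 and CCN2 were. With DESeq2 2 genes of the list fell, as without GABA replicate 1, and 3 fell without control replicate 1 or GABA replicate 2. Of 8 Notch genes 2 rose and 6 fell, with 3 falling without GABA replicate 1. HEY1, a Notch target, had -1.17 ± 0.30 (8.32 to 3.66 CPM; adjusted p = 0.0046), and the sheddase ADAM17 had -0.31 ± 0.07. The fringe glycosyltransferases RFNG and MFNG had 0.30 ± 0.07 and -0.61 ± 0.20, and MFNG was not called without control replicate 2. RFNG was 1 of the 2 that rose, and 1 gene rose without control replicate 1, control replicate 3, GABA replicate 2 or GABA replicate 3, where HEYL, the other Notch gene that rose, was not called. In the Wnt list 2 of 5 rose and 3 fell. DKK1, a secreted Wnt antagonist, rose from 1667 ± 47.2 to 2449.90 ± 82.2 CPM (SD, n = 3; adjusted p = 2.3e-05) and APC by 0.29 ± 0.08, while ZNRF3, a ligase that removes Wnt receptors, had -0.47 ± 0.11 and the receptor FZD7 -0.40 ± 0.11.

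**Figure D4:**
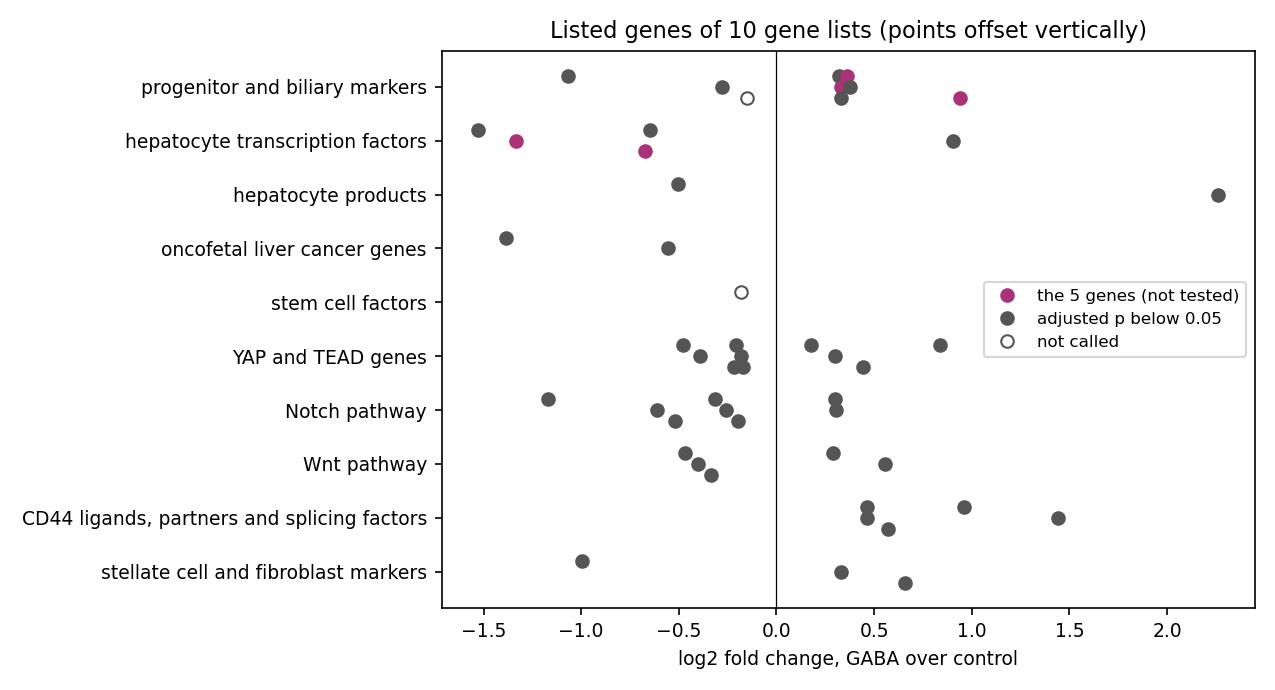
log2 fold change of GABA over control for each tested gene of 10 gene lists, with 1 point per gene. Filled grey points passed an adjusted p of 0.05 in edgeR, open points did not, and the 5 genes described here are in purple and were not tested. GATA6 and SLC2A2 are also filled, but each passed the filter through 1 group alone and had to differ. Their fill is no test result. Points lie on both sides of 0 in the progenitor, YAP, Notch and Wnt lists and to the right of 0 in the CD44 list.

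By the distance between centred log2 CPM profiles over the 6 libraries, the 3 genes most like SOX9 were SGK1 (distance 0.084), FN1 (0.085) and F3 (0.128). SGK1 is a serum-induced kinase, FN1 is fibronectin and F3 is tissue factor. They rose by 0.94, 0.88 and 0.88 on the log2 scale, at higher CPM than SOX9. The nearest profiles were those of TMEM175 (0.042), ELAC2 and NDOR1 for KRT19 and those of WDFY1 (0.037), MOCS3 and ZKSCAN5 for CD44. MALT1 (0.129), KCTD12 and KAZN were nearest to HNF4G, and CNGB1 (0.374), LONRF2 and AC089983.1 to FOXA1. With 2 groups of 3 libraries such a distance mostly reflects the size of the group difference.

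Of the 5 genes 2 have an entry in the RefSeq promoter table (GRCh38.p14), FOXA1 and CD44. The 250 bases before each start were searched on both strands for a SOX motif (ACAAAG), a forkhead motif (TGTTTNC), an HNF4 motif (CAAAGTCCA), a TEAD motif (GGAATG) and the motif of the Notch factor RBPJ (TGGGAA). FOXA1 had 3 SOX matches and 1 forkhead match, and CD44 had 1 forkhead match. Of 27305 promoters 13.7% held the SOX letters, 15.6% the forkhead letters, 0.293% the HNF4 letters, 11.9% the TEAD letters and 21.1% the RBPJ letters. The stretches are shown because they hold letters of the motif families of SOX9 and FOXA1 themselves. The first runs from 250 to 100 bases before the FOXA1 start, on the minus strand (chr14:37595349-37595499), in an intron of a noncoding FOXA1 transcript in GENCODE. The second runs from 57 to 28 bases before the CD44 start, on the plus strand (chr11:35139114-35139143), in the first exon of longer CD44 transcripts in GENCODE. Capitals mark the matches, and the first run of capitals in FOXA1 is a forkhead match that overlaps a SOX match. The other run in FOXA1 is a SOX match, and the remaining SOX match lies nearer to the start, outside the stretch shown.
FOXA1: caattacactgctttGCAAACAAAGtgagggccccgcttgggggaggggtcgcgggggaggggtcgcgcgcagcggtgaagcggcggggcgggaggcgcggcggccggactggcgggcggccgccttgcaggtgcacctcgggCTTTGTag
CD44: gtcttaggtcacTGTTTTCaacctcgaata
These matches are letters in a window and no measured binding.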

How the data were processed

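The deposited files hold whole-number read counts per gene, as made by the authors. CASAVA 1.8, Bowtie 0.12.2 and the hg38 build are named, without their roles, per the submitters' processing notes. The counting program, annotation and strand setting are not given in the sources used here. For 4904 genes the symbol was taken from a table of current names and for the other 283 from GENCODE release 29, which also gave exons. Genes are listed in nearly the order of their p-values (Spearman correlation 0.93 over 4981 genes), a selection that the labels do not mention.

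edgeR 4.0.16 in R 4.3.3 was run with filterByExpr (minimum count 10, total 15), TMM scaling and the robust quasi-likelihood F test, adjusted by Benjamini-Hochberg at 0.05. The filter removed 206 genes. CPM are TMM-scaled and relative to the listed genes that passed the filter. Alternatives were DESeq2 1.42.0, limma-voom (limma 3.58.1), other scalings and filters, a replicate block and each library left out. The test was checked on simulated counts with 200 genes changed and the others unchanged. In the deposited files nearly all listed genes differ, so that check does not cover the scaling between libraries.

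The 5 genes and all lists were chosen with earlier results of these data known. Genes were named by rule: the 5 genes, every tested gene of the progenitor and hepatocyte factor lists, up to 4 with the smallest p from each other list, the 3 nearest profiles (mean of at least 10 CPM), and listed genes starting within 100 kb of the 5. Others named, such as TEAD1, TEAD3, TEAD4, WWTR1, CCN2, NOTCH1, HES1, RBPJ, HEYL and HYAL2, were chosen after their values were seen.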

Additional observations from a re-analysis of the deposited data

How the results depend on the processing

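The 5 genes kept their direction in each of 70 alternative values, and 66 of these moved by less than the spread between libraries. With DESeq2 size factors in edgeR and with DESeq2, SOX9 had 0.985 and CD44 0.374. With a library left out the ranges were 0.929 to 0.965 for SOX9, 0.333 to 0.399 for KRT19, 0.300 to 0.348 for CD44, -1.501 to -1.093 for FOXA1 and -0.745 to -0.618 for HNF4G. A fixed direction is no sign of stability here, since the genes were chosen with it known. Levels per kilobase by the longest transcript were, in control and GABA libraries, 717 and 921 for KRT19, 537 and 675 for CD44, 0.923 and 0.362 for FOXA1, and 2.28 and 1.43 for HNF4G, since that length is shorter. The shift in the SOX9 to FOXA1 ratio was 2.031 to 2.560 with a library left out, 1.616 with HNF4G as the denominator, and 1.771 and 1.741 with KRT19 and CD44 as the numerator.

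DESeq2 called 4324 genes (2371 higher and 1953 lower) and edgeR with DESeq2 size factors 4423 (2373 and 2050), against 2369 higher and 2549 lower in edgeR with TMM, so that more genes were higher than lower and the calls fewer only among lower genes. edgeR without a filter called 5131, and the fits that left out a library called 4025 to 4735. YAP and TEAD genes that fell numbered 2 with DESeq2 size factors and with DESeq2, and 2 to 5 with a library left out. Notch genes that rose numbered 1 to 2 and those that fell 3 to 5 with a library left out. Stem cell factors that fell numbered 0 to 1 with a library left out and 1 with the replicate block. Hepatocyte products that rose numbered 0 with a mean count of at least 10, as SLC2A2 was then removed. For the other changes the cause was not tested. The replicate block called 4823 genes. Same-numbered libraries did not deviate together (correlations of 0.0007, -0.0912 and -0.0360), and the labels do not say that a number marks a shared culture or day. Among 61 other named genes, 796 alternative values gave the same call, 54 lost it and 3 gained it, with no change of sign. The low counts of FOXA1 and GATA6 limit their precision most.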
